A study of Mus musculus with 2 samples.

Results

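The genes described here encode the collagen chains that do not belong to basement membranes. They were taken as every gene whose single symbol on the array platform has the form Col, number, a, number, without the type IV chains Col4a1 to Col4a6 and without Col15a1 and Col18a1, which code for basement membrane zone collagens. The platform named 34 such genes, measured by 67 probe sets, among 42 collagen genes and 18194 genes in all. Lenses of wild-type C57/BL6 mice were pooled for RNA at postnatal day 60 (P60, the young adult) and at postnatal day 7 (P7, when the lens is still growing), with 1 pool and 1 array per age. How many animals and lenses a pool held, and their sex, the sources used here do not give.

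With 1 array per age there is no replicate, no test and no error on any value, so differences are given by size. A value is a MAS5 signal intensity on a linear scale. Values under 103.9, the median over all readings, were raised to that floor before log2 ratios of P60 over P7 were taken, so that folds and log2 ratios on floored values are minima, marked as "at least" or as a bound. A gene was counted as measured when its brightest probe set read above the floor at 1 age or both, and as higher or lower when both arrays differed 2-fold or more. To judge measurement error, log2 ratios of probe sets of the same gene had a pooled SD of 0.58 over 4239 genes. Only probe sets above the floor at both ages entered it, so it was not measured for readings under the floor. That spread does not cover variation among animals, pools or hybridisations either.

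Collagens are secreted proteins of 3 chains wound into a triple helix. Fibril-forming collagens such as types I, II, III, V and XI assemble into cross-banded fibrils. FACIT collagens, such as types IX, XII and XIV, lie on the surface of those fibrils. Type VI collagen forms beaded microfilaments around cells, and type VIII forms hexagonal sheets such as those of Descemet's membrane under the cornea. Types XIII, XVII, XXIII and XXV span the plasma membrane, and type VII anchors epithelia to the stroma. The lens is enclosed in a capsule made mainly of type IV collagen, whereas the vitreous body behind it is a gel held by fibrils of types II, IX and V/XI. Fibrillar collagens are known chiefly from the tissues around the lens.

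Of the 34 genes, 23 were measured and 11 were under the floor on both arrays. Among the 23, 4 were 2-fold or more higher at P60 (Col1a2, Col6a1, Col6a2 and Col8a2) and 6 were 2-fold or more lower (Col2a1, Col5a2, Col9a1, Col9a2, Col11a1 and Col13a1), while 13 lay within 2-fold. The shares over all 13029 measured genes were 11.5% for 2-fold higher and 9.44% for 2-fold lower, or 17.3% and 6.08% when the arrays were scaled to equal medians. The median log2 ratio was -0.40 over the measured collagens and 0.02 over all measured genes. Most of the collagens were dim, and 19 of the 23 read at most 1000 on both arrays. Of these 19, 2 were 2-fold higher and 5 were 2-fold lower, against 9.39% and 9.12% of the 8044 measured genes that read at most 1000 on both arrays. At P60 15 of the 23 lay above the floor and at P7 20 did, 12 of them at both ages. Of all probe sets on the arrays, 47.8% lay above the floor at P60 and 52.2% at P7. For 6 of the 10 genes past 2-fold the fold is a bound, because 1 of the ages read under the floor. With a floor of 200, Col9a1 was the only one of 17 measured collagens still 2-fold lower, against 7.84% of all measured genes.

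**Figure D1:**
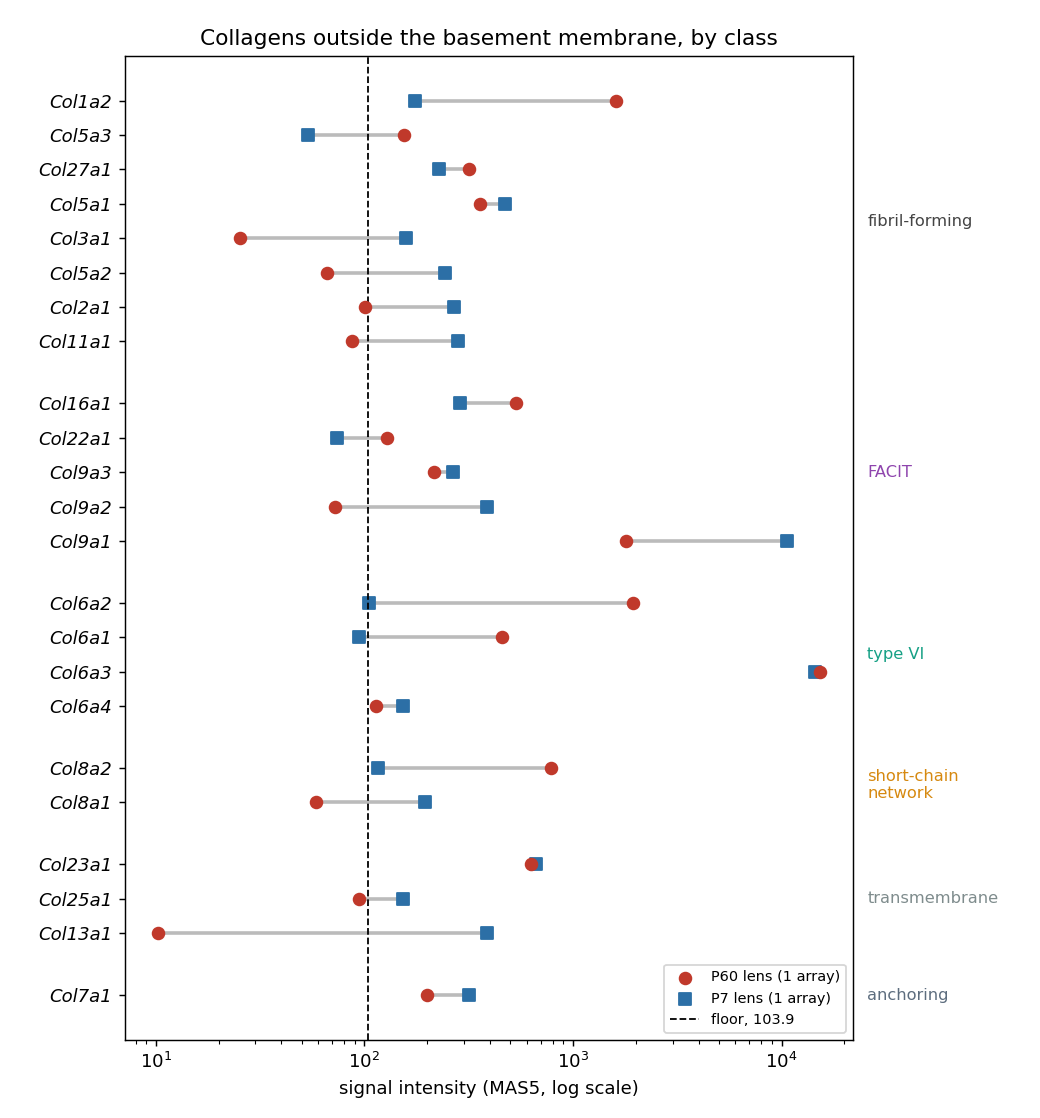
Signal intensity (log scale) of the 23 measured collagens outside the basement membrane, by class, on the P60 array (circles) and the P7 array (squares), with a line joining both. The dashed line is the floor of 103.9. Col6a3 (15226 at P60 and 14465 at P7) and Col9a1 (1803 at P60 and 10563 at P7) have the brightest readings.

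Stretches of 150 bases before annotated transcription starts are shown for genes past 2-fold, from RefSeq on GRCm38.p6, so that the genes lower and higher at P60 can be read side by side. Shown are all but 1 of the stretches that the table holds for these genes. The second start of Col6a2 lies downstream of the first, and its stretch, which held GGGCGG on the other strand, is left out because it may lie within the transcript. RefSeq promoters matched 26 of the 34 genes, with 28 starts. None matched Col2a1 or Col5a2, so these genes lower at P60 are not shown. Each stretch reads 5′ to 3′ on the strand of the gene and ends at the base before the start. Capitals mark the CCAAT box and the GC box, GGGCGG, which Sp1 binds. On the other strand they read ATTGG and CCGCCC. The search also covered TATAAA, called the TATA box, and the core ACAAAG that SOX factors bind, on both strands. Neighbouring matches of CCGCCC can share bases. The other genes lower at P60 are these.
Col9a1 upstream start, chr1:24177460-24177609, plus strand: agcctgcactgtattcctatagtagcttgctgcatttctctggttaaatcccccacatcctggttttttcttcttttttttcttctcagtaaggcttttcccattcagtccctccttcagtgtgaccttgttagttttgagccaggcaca
Col9a1 downstream start, chr1:24195053-24195202, plus strand: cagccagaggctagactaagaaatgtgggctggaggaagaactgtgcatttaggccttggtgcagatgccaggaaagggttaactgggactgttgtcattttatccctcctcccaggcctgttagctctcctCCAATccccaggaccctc
Col9a2, chr4:121039416-121039565, plus strand: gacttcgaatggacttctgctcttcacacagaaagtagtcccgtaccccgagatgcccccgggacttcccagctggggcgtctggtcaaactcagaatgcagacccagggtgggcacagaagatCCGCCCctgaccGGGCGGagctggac
Col11a1, chr3:114030390-114030539, plus strand: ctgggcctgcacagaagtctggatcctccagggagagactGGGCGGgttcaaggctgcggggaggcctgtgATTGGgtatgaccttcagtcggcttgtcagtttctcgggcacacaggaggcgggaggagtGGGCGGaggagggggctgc
Col13a1, chr10:61979109-61979258, minus strand: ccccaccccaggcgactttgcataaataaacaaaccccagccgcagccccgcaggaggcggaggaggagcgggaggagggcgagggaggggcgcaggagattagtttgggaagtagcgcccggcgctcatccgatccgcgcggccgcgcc
The genes higher at P60 are these.
Col1a2, chr6:4505468-4505617, plus strand: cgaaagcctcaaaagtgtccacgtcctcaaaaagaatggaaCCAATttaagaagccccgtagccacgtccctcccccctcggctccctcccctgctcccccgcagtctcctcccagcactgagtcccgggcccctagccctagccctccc
Col6a1, chr10:76726045-76726194, minus strand: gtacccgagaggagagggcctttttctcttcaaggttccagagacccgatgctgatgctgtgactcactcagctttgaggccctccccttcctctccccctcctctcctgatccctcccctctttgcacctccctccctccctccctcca
Col6a2 upstream start, chr10:76623631-76623780, minus strand: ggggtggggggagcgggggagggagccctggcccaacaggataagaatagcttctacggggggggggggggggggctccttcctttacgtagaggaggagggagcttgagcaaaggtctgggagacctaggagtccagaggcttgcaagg
Col8a2, chr4:126286644-126286793, plus strand: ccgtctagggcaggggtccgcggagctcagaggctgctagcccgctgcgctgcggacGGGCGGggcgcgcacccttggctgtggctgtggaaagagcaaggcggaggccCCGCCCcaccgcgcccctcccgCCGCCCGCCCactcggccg

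Over all 32851 promoter stretches of the same length, 28.6% held GGGCGG, 24.5% CCAAT, 9.88% ACAAAG and 7.57% TATAAA on either strand. Of the 28 stretches of these collagens, 14 (50.0%) held GGGCGG, 6 (21.4%) CCAAT, 4 (14.3%) TATAAA and 0 ACAAAG. None of the 9 stretches shown held TATAAA. The letters GGGCGG were found on either strand in those of Col9a2, Col11a1 and Col8a2, and CCAAT on either strand in those of Col11a1, Col1a2 and the downstream start of Col9a1. Neither stood in those of Col13a1, Col6a1, the upstream start of Col9a1 or the upstream start of Col6a2. Both motifs occurred among genes lower and among genes higher at P60. A match describes the letters only, and no binding was measured here.

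Most measured chains of cartilage and vitreous fibrils read 2-fold lower at P60, with P60 values under the floor in all of those but Col9a1. The 6 measured genes of that group were Col2a1, Col5a2, Col9a1, Col9a2, Col9a3 and Col11a1. Of these, 5 were at least 2-fold lower and none was 2-fold higher, with a median log2 ratio of -1.40. Over all measured genes 9.44% were 2-fold lower and 11.5% 2-fold higher. Col9a3 lay within 2-fold. The seventh, Col11a2, was under the floor on both arrays, with 80.8 at P60 and 34.9 at P7. With a floor of 200, 1 of the 6 remained 2-fold lower, Col9a1, and the median was -0.46. Col2a1 (-0.42), Col5a2 (-0.28), Col9a2 (-0.96) and Col11a1 (-0.49) were then within 2-fold. When a gene had to exceed the floor at both ages, Col9a1 and Col9a3 were the only ones measured. The group was put together with earlier results of these arrays known, so its count is a description.

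Col9a1, the first chain of type IX collagen, a FACIT that coats type II fibrils and carries a glycosaminoglycan chain in the vitreous, had 1803 at P60 and 10563 at P7. It was 5.86-fold lower at P60, and it was the only gene of the group that stayed far above the floor at both ages. Its other probe set read 432 at P60 and 1279 at P7, a log2 ratio of -1.56 beside -2.55 on the brightest. The gene has 2 annotated starts, shown above. The downstream start is known for a shorter protein made in the eye, and the arrays were not read by transcript form.

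Its partner chain Col9a2 had 72.4 at P60, under the floor, and 388 at P7, so it was at least 3.74-fold lower at P60. Col9a3, the third chain of the type IX trimer, had 215 at P60 and 265 at P7, a log2 ratio of -0.31. A second probe set of Col9a3 read 81.8 at P60 and 271 at P7 (-1.38, a bound), and a further one was under the floor on both arrays. The brightest probe sets of all 3 chains read lower at P60, that of Col9a3 by less than the SD between probe sets.

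Col2a1, the chain of type II collagen and the main fibril collagen of cartilage and vitreous, had 100.3 at P60 and 268 at P7, at least 2.58-fold lower. It rests on 1 probe set. Col11a1, a chain of the type V/XI fibril core, had 87.1 at P60 and 281 at P7, at least 2.70-fold lower. A second probe set read 20.6 at P60 and 123 at P7, a log2 ratio of -0.25 that is a bound. Col5a2, which joins type V trimers and is shared with the vitreous fibrils, had 66.5 at P60 and 243 at P7, at least 2.34-fold lower, whereas a second probe set gave -0.20, a bound (8.17 at P60 and 119.6 at P7). In these 3 genes and in Col9a2 the P60 value was under the floor, while the P7 value was between 243 and 388.

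**Figure D2:**
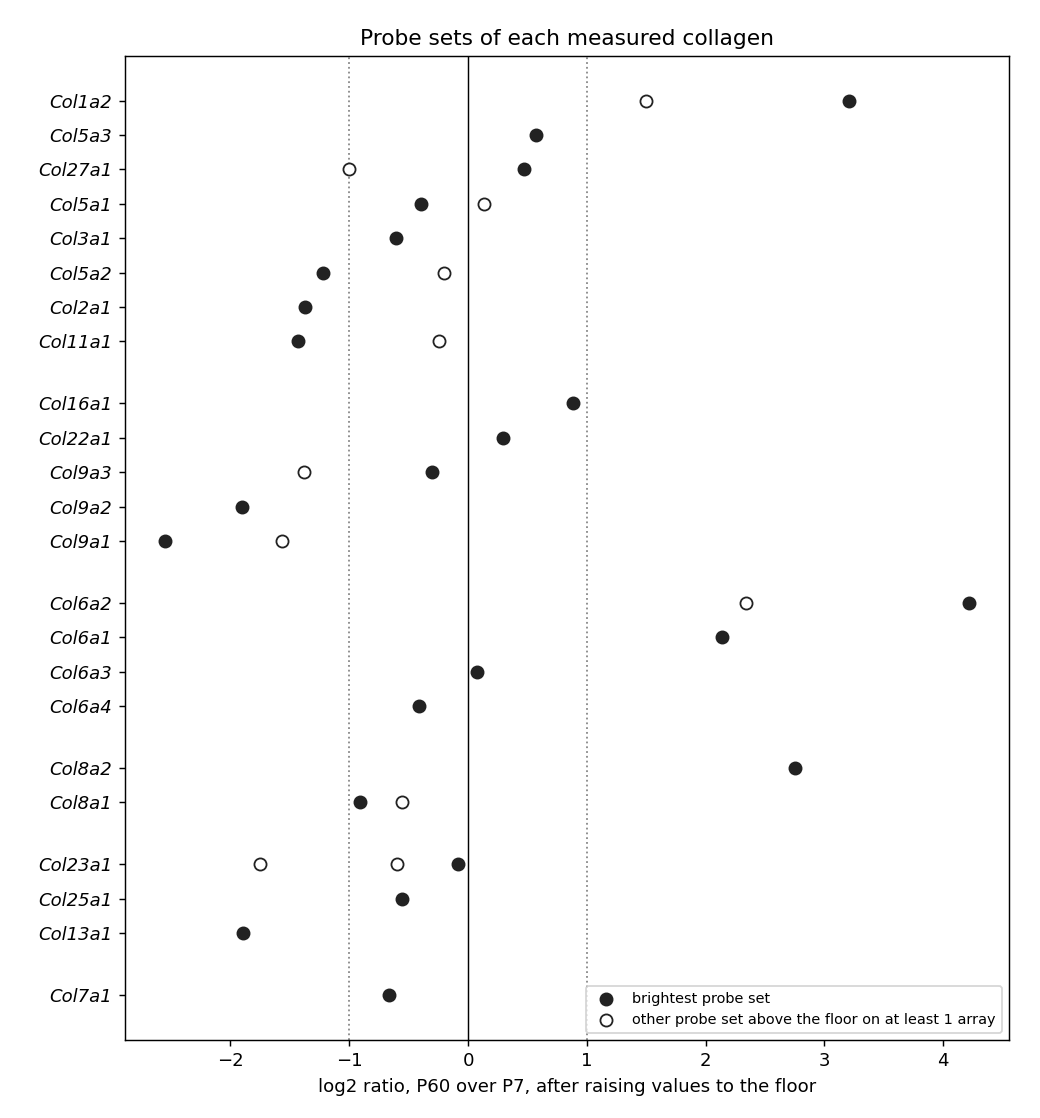
Log2 ratio of P60 over P7, after raising values to the floor, for every probe set above the floor at 1 age or both. Filled points are the brightest probe set of a gene and open points its others, and dotted lines mark 2-fold. The probe sets of Col6a2, Col1a2 and Col9a1 lie beyond 2-fold on the same side, and those of Col5a1 and Col27a1 lie on both sides of 0.

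Outside the cartilage and vitreous group, 5 fibril-forming genes were measured (Col1a2, Col3a1, Col5a1, Col5a3 and Col27a1), of which 1, Col1a2, was 2-fold higher and none was 2-fold lower (median log2 ratio 0.47). Over all 8 measured fibril-forming genes 1 was higher and 3 were lower (median -0.50), the 3 being Col2a1, Col5a2 and Col11a1 of the cartilage and vitreous group. The interstitial chains measured were Col1a2, Col3a1, Col5a1 and, shared with the vitreous group, Col5a2 (median -0.50). Col1a2, the second chain of type I collagen, the main fibril of sclera, cornea and skin, had 1604 at P60 and 174 at P7, 9.21-fold higher. Its second probe set read 499.8 at P60 and 177 at P7, a log2 ratio of 1.50, and a further one was under the floor at both ages. Col1a1, the partner that supplies the other chains of the type I trimer, was under the floor on both of its probe sets, with 86.8 at P60 and 13.1 at P7 on the brighter and 16.4 at P60 and 27.6 at P7 on the other, so no direction is given for it.

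Col3a1, the type III chain of elastic connective tissue and vessel walls, had 25.4 at P60 and 158 at P7, a log2 ratio of -0.60 that is a bound. Col5a1, the chain that sets fibril diameter in type V trimers, had 357 at P60 and 471 at P7 (-0.40), with a second probe set at 0.13. Col5a3, a rarer type V chain, had 155 at P60 and 53.5 at P7, at least 1.49-fold higher. Col27a1, a fibril-forming chain of developing cartilage, had 317 at P60 and 228 at P7 (0.47), whereas its other probe set had 156 at P60 and 312 at P7, so its direction depends on the probe set. Of the fibril-forming chains, Col11a2 and Col24a1 were also under the floor at both ages.

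Of 4 measured type VI genes 2 were more than 2-fold higher at P60 and none was 2-fold lower, with a median log2 ratio of 1.11. Col6a2, a short chain of the type VI trimer, had 1941 at P60 and 105 at P7, 18.6-fold higher. The P7 reading lay just above the floor and under 122.8, the 95th percentile of olfactory, vomeronasal and taste receptor probe sets, so the fold depends on the floor, and with a floor of 200 it was at least 9.71-fold. Its second probe set read 629 at P60 and 124 at P7, a log2 ratio of 2.34 beside 4.21 on the brightest. Col6a1, the other short chain, had 457 at P60 and 94.5 at P7, at least 4.40-fold higher on its 1 probe set, and at least 2.28-fold with a floor of 200.

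Col6a3, the long chain of the same trimer, had 15226 at P60 and 14465 at P7, a log2 ratio of 0.07. It was far above the floor at both ages, so this chain of the trimer differed little between the arrays where Col6a1 and Col6a2 differed more than 2-fold with either floor. Probe sets differ in how strongly they bind their transcript, so these intensities do not give the ratio of the chains to each other. Col6a4, which can take the place of the long chain, had 114 at P60 and 152 at P7 (-0.42), and Col6a5 was under the floor on both arrays. Col6a1 and Col6a2 are neighbours on mouse chromosome 10 with no other coding gene between them in the RefSeq annotation, and both were higher at P60. Col18a1, a basement membrane collagen 2 coding genes away from Col6a1, had a log2 ratio of -1.53 (-0.18 on its other probe set). The other neighbouring pairs of these genes are Col3a1 with Col5a2, which both read lower at P60, and Col9a1 with Col19a1, of which the second was under the floor on both arrays, as was Col6a5 beside Col6a4.

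The type VIII chains, in which Descemet's membrane and vessel walls are rich, went opposite ways. Col8a2 had 788 at P60 and 117 at P7, 6.75-fold higher, on its 1 probe set. Its P7 reading also lay under 122.8, and with a floor of 200 it was at least 3.94-fold higher. Col8a1 had 58.7 at P60 and 195 at P7, at least 1.88-fold lower (log2 ratio -0.91), with its second probe set at -0.56, also a bound. Col10a1, the related chain of growth plate cartilage, was under the floor at both ages (14.7 at P60 and 15.1 at P7).

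Among the FACIT collagens other than type IX, none passed 2-fold. Col16a1, which binds to fibrils and to integrins, had 532 at P60 and 288 at P7, 1.85-fold higher, on its 1 probe set. Col22a1, a FACIT known from tissue junctions such as those of muscle and tendon, had 128 at P60 and 73.6 at P7 (0.30, a bound). Col12a1, Col14a1, Col19a1 and Col20a1 were under the floor on their brightest probe sets at both ages. Col20a1 was the only one of the 11 unmeasured genes with another probe set above the floor, 2 of them at P7, with 195 and 123, against 13.7 and 45.1 at P60. Over all 5 measured FACIT genes, type IX included, 2 were 2-fold lower and none was higher (median log2 ratio -0.31).

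Of the 3 measured transmembrane collagens 1 was at least 2-fold lower at P60 and 2 lay within 2-fold. Col13a1, a cell-adhesion collagen of nerve-muscle junctions, had 10.2 at P60 and 387 at P7, at least 3.72-fold lower on its 1 probe set, and at least 1.93-fold with a floor of 200. At P60 it was the dimmest of the 23 measured genes. Col25a1, a neuronal membrane collagen, had 94.4 at P60 and 153 at P7 (-0.56, a bound). Col23a1, whose ectodomain is shed from the cell surface, had 627 at P60 and 667 at P7 on the brightest probe set (-0.09). Its other probe sets gave log2 ratios of -1.75 (258 at P60 and 869 at P7) and -0.60 (287 at P60 and 434 at P7). The size of its difference thus depends on the probe set, while all of them were below 0 as deposited. With the arrays scaled to equal medians the ratio of Col23a1 was 0.18. Col17a1, the hemidesmosome collagen of skin and corneal epithelium, was under the floor at both ages with 2.21 at P60 and 6.94 at P7. Col7a1, which forms the anchoring fibrils under such epithelia, had 201 at P60 and 318 at P7, 1.58-fold lower. Col26a1 was under the floor on both arrays.

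**Figure D3:**
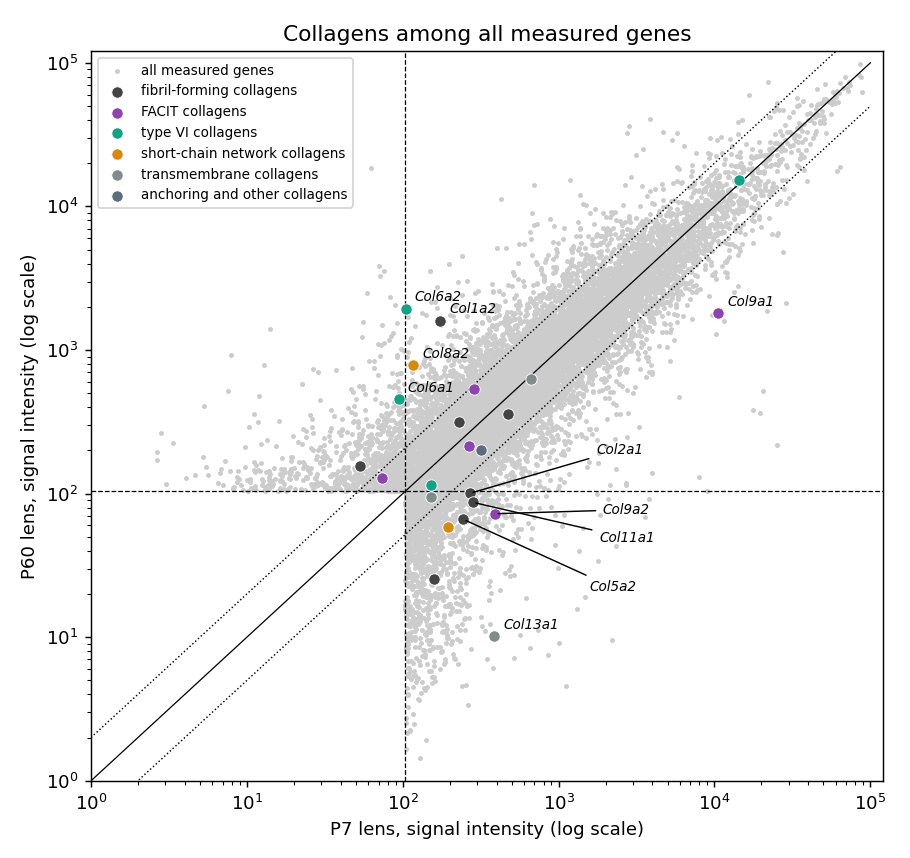
Signal intensity at P60 against P7 (both log scales) for the 13029 measured genes (grey) and the 23 measured collagens, coloured by class. The solid line marks equal signal, dotted lines 2-fold and dashed lines the floor, and the 10 collagens past 2-fold are named. Only Col9a1 and Col6a3 read over 1000 on both arrays.

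The 11 unmeasured genes ranged from 2.21 to 96.0 at P60 and from 6.94 to 87.4 at P7. They are Col1a1, Col10a1, Col11a2, Col12a1, Col14a1, Col17a1, Col19a1, Col20a1, Col24a1, Col26a1 and Col6a5. A reading under the floor does not show that a gene is silent. Of the 23 measured genes 13 had only 1 probe set above the floor. The other 10 had 2 or more, and in 8 of them every such probe set lay on the same side of 0, whereas in Col5a1 and Col27a1 they lay on both sides.

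For comparison, of the 8 basement membrane collagens of the same arrays 7 were measured, 2 of them 2-fold higher (Col4a3 and Col4a4) and 1 lower (Col18a1), with a median log2 ratio of 0.58 beside -0.40 for the collagens outside the basement membrane. Col15a1 was under the floor on both arrays. The main capsule chain Col4a1 had 45597 at P60 and 31826 at P7, a log2 ratio of 0.52. Its other probe set read 20036.5 at P60 and 5188 at P7 (1.95). Col18a1 had 888 at P60 and 2560 at P7 (-1.53), but 898 at P60 and 1014 at P7 (-0.18) on its other probe set. The probe sets of Col4a4 ran from 0.54 to 2.38. The difference between both sets of collagens was not tested.

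Genes that fold, export, cleave, cross-link and bind collagen were read from lists drawn up with earlier results of these arrays known. Collagen folding takes place in the endoplasmic reticulum, where prolines and lysines are hydroxylated before the helix closes. Of 19 measured genes of folding and hydroxylation 5 were past 2-fold on the higher side and 2 on the lower side (median log2 ratio 0.06). P4ha1, a catalytic subunit of prolyl 4-hydroxylase, had 5353 at P60 and 1731 at P7 (1.63, its other probe set at 0.71). Plod2, which hydroxylates lysines for cross-links, had 1411 at P60 and 467 at P7 (1.60, its other probe set at 1.87). At the other end, P4ha3 had 11.2 at P60 and 251 at P7, at least 2.41-fold lower, and P3h2, a prolyl 3-hydroxylase, had 592 at P60 and 1251 at P7 (-1.08). The collagen chaperone Serpinh1, which all procollagens use, had a log2 ratio of -0.07.

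Of 10 measured genes of procollagen export 2 were 2-fold higher and 1 lower (median 0.09). Klhl12, a ubiquitin ligase adaptor that enlarges transport vesicles for procollagen, had 1652 at P60 and 729 at P7 (1.18), and Creb3l1, a transcription factor that acts on collagen genes in bone, had 271 at P60 and 134 at P7 (1.01). Sec13 and Sar1b, parts of the vesicle coat, had log2 ratios of -1.15 (1882 at P60 and 4186 at P7) and -0.98 (4903 at P60 and 9670 at P7). Of 7 measured genes of propeptide cleavage and cross-linking 1 was higher and 1 lower (median -0.10). Pcolce, which speeds the removal of the C-propeptide of fibrillar procollagens, had 5613 at P60 and 1933 at P7 (1.54, its other probe set at 1.73), and the propeptide protease gene Bmp1 had a log2 ratio of 0.98 with probe sets on both sides of 0. The cross-linking enzymes Lox (15.3 at P60 and 221 at P7, a bound) and Loxl1 (4323 at P60 and 6949 at P7) had log2 ratios of -1.09 and -0.68.

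Of 7 measured collagen receptors 2 were 2-fold higher and none lower (median -0.05). Ddr2, a receptor tyrosine kinase for fibrillar collagen, had 1615 at P60 and 358 at P7, 4.51-fold higher, with its other probe set at 1.90. Ddr1, which binds fibrillar and type IV collagen, had 5561 at P60 and 1839 at P7 (1.60), with probe sets on both sides of 0. Itgb1, the shared subunit of the collagen integrins, had a log2 ratio of -0.88, with probe sets on both sides of 0, and Itga2, a collagen-binding subunit, of -0.39. Of 13 measured matrix proteins that regulate or accompany fibrils, 5 were 2-fold higher and 2 lower (median 0.54). Cilp, a cartilage matrix protein, had 3286 at P60 and 71.9 at P7, at least 31.6-fold higher, and Fmod, a fibril-binding proteoglycan, had 3561 at P60 and 150.2 at P7 (4.57, with its lowest probe set at 2.44). Optc, a glycoprotein that coats vitreous fibrils, had 761 at P60 and 2110 at P7 (-1.47), and Postn, a matrix protein that binds type I collagen, had 59.8 at P60 and 394 at P7 (-1.92, a bound).

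**Figure D4:**
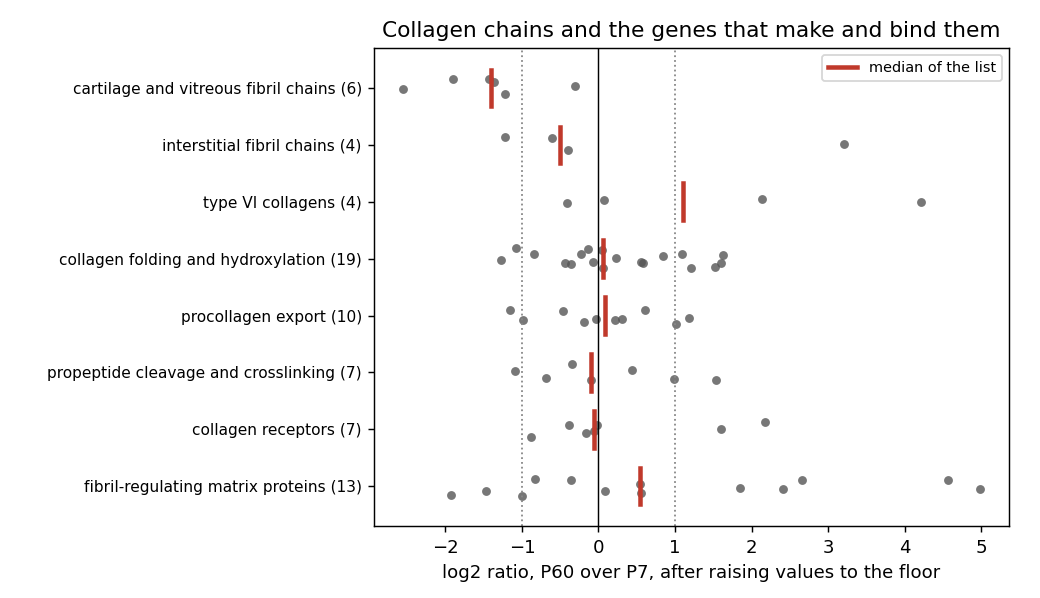
Log2 ratios of P60 over P7, after raising values to the floor, for the measured genes (number in brackets) of 3 groups of collagen chains and 5 lists of genes that make or bind collagen. Each point is 1 gene, the red bar is the median of the list and dotted lines mark 2-fold. The cartilage and vitreous chains have a median of -1.40, and the medians of the 5 other lists run from -0.10 to 0.54.

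Markers of other cell types around the lens were read beside these results, since the pools are of whole lenses. In such samples fewer cells of a type and less RNA per cell cannot be told apart. Lens markers were bright at both ages, 13 of 13 above the floor with a summed intensity of 665505 at P60 and 656376 at P7, and 1 of them, Foxe3, was 2-fold lower. Fibroblast markers were split. Of 12 genes 6 were measured, 2 higher and 1 lower, with a summed intensity of 8323 at P60 and 4131 at P7. Pdgfra (5892 at P60 and 2732 at P7) and Fbln1 (1681 at P60 and 454 at P7) were the higher ones. Pdgfra made up most of both sums, and the arrays do not show which cells it came from. Fbln2 was the lower one (84.1 at P60 and 378 at P7), and Dcn, Lum, Thy1, Dpt, Pi16 and Twist2 were under the floor on both arrays. Of the corneal list 6 of 9 were measured, 2 of them higher (sum 51777 at P60 and 6345 at P7). These were Aldh3a1 (18639 at P60 and 62.6 at P7, at least 179-fold higher) and Ptgds (32489 at P60 and 5720 at P7), without which the sum was 649 at P60 and 563 at P7. Krt12, Krt15 and Kera were under the floor at both ages. Vascular endothelial markers were lower, 9 of 11 measured at least 2-fold, against 9.44% of all measured genes (sum 1355 at P60 and 5978 at P7). At P60 4 of them lay above the floor and at P7 11 did. A marker above the floor at P7 only could not read higher at P60. Pecam1 and Tie1 were under the floor at both ages. Of the list of pericytes and smooth muscle 7 of 10 were measured, 2 higher (Acta2 and Pdgfrb) and 2 lower (Rgs5 and Notch3), with Myh11, Cspg4 and Cnn1 under the floor. Its sum was 38748 at P60 and 13951 at P7, or 6224 at P60 and 11187 at P7 without Acta2. Of the sums without Acta2, Pdgfrb made up 5451 at P60 and 561 at P7, and Rgs5 104 at P60 and 8935 at P7. The direction of this sum thus rests on single genes.

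The list of pigment cells and ciliary epithelium, the tissue known to make vitreous collagen, had 10 of 11 genes measured, of which 2 were higher and 4 lower (median log2 ratio -0.61), and a sum of 5815 at P60 and 5466 at P7. Tyrp1, Pmel, Rlbp1 and Optc were the lower ones and Oca2 and Ttr the higher. Retinal markers had 10 of 10 measured, 2 higher and 3 lower (median -0.67). Their sum was 9501 at P60 and 5902 at P7, or 2461 at P60 and 3869 at P7 without Glul, an enzyme of Müller glia that other cells also make. Macrophage and leukocyte markers had 8 of 12 measured, 1 higher and 1 lower (median -0.24, sum 1547 at P60 and 1638 at P7), and skeletal muscle markers 5 of 10, 1 higher and none lower (median -0.02, sum 828 at P60 and 869 at P7). Of the 9 marker lists 7 had medians below 0 as deposited, lens included. Those of lens (-0.04), skeletal muscle (-0.02), pericytes and smooth muscle (-0.09) and macrophages (-0.24) were smaller in size than the SD of 0.58. Scaling to equal medians, which moved the median of all measured genes from 0.02 to 0.27, was not applied to these lists. The part of these cells in the collagen differences was not tested. The ratio of 5′ to 3′ signal of beta-actin, a sign of RNA integrity, was 0.606 at P60 and 0.785 at P7, and that of Gapdh 1.29 at P60 and 1.39 at P7. Its part in the lower readings was not tested either.

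**Figure D5:**
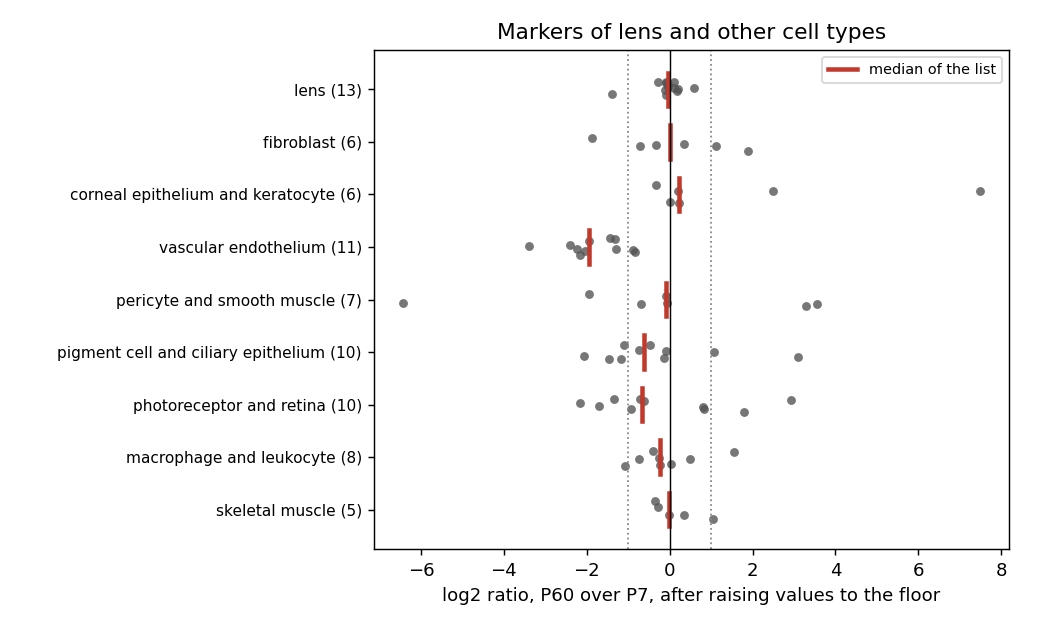
Log2 ratios of P60 over P7, after raising values to the floor, for the measured markers (number in brackets) of lens and of 8 other cell types. Each point is 1 gene, the red bar is the median of the list and dotted lines mark 2-fold. The vascular endothelial list has the lowest median, -1.94, and the lens list lies at -0.04.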

How the data were processed

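Pooled lens RNA of each age was hybridised to 1 mouse Affymetrix array, after DNase treatment, spin-column extraction and biotin labelling, per the labels' protocols. The authors deposited linear signal intensities made with MAS5, per the submitters' processing notes, whose version and settings the sources used here do not give. On both arrays the mean without the lowest and highest 2% of values was 500.0. No scanner values or detection calls were used.

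A platform annotation table gave 1 symbol to 34958 of 45101 probe sets, several to 932 and none to 9211. Of the 34958, 34754 matched a current RefSeq mouse gene by gene number. The collagens were found by platform symbol. Each gene was represented by its brightest probe set, by mean log2 intensity over both arrays. The floor was 103.9. The 95th percentile of 86 olfactory, vomeronasal and taste receptor probe sets was 122.8. Every measured collagen is named, and of each list of other collagen genes the 2 highest and 2 lowest, Serpinh1 being added after its value was seen. Members, classes and lists were chosen with earlier results of these data known. Python 3.11.15, pandas 2.3.3 and numpy 2.4.6 were used. The calculation was tested on simulated data with P7 values above the floor and less spread than between probe sets here. That test does not cover readings under the floor. Precision is limited by the number of arrays. Alternatives were other floors, a pseudocount, other probe sets, other scalings and stricter detection.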

Additional observations from a re-analysis of the deposited data

How the results depend on the processing

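No paired analysis was possible because each age has 1 array. Over the 10 alternatives the count of collagens 2-fold higher at P60 ran from 3 to 6, beside 4 in the reported setting. The share of all measured genes 2-fold higher ran from 8.74% to 17.3%. The count of lower ones, 6 of 23 as reported, was 1 of 17 with a floor of 200, against 7.84% of all measured genes. It was 1 of 12 when a gene had to exceed the floor at both ages, against 8.38%. With a pseudocount of 32 and no floor it was 10 of 34, against 12.8%. Otherwise it ran from 4 to 8, of 14 to 31 measured, with all-gene shares from 6.08% to 13.0%. The floor of 200 and the demand for both ages raise the floor or drop genes under it, where most of the lower readings lie. The floor at the receptor 95th percentile was chosen after seeing the data and gave 4 higher and 5 lower. The median log2 ratio ran from -0.66 to -0.0072. Scaling the arrays to equal medians moved the median of all measured genes to 0.27, beside -0.04 for the collagens. Col6a2, Col8a2, Col6a1 and Col9a1 stayed past 2-fold in every alternative that measured them, with Col9a1 between -2.57 and -1.56. Col5a2 stayed past 2-fold in 5 of the 10, Col11a1 in 6, Col2a1 in 7 and Col9a2 and Col13a1 in 8, and all 5 lost it with a floor of 200. These counts do not rank the genes, since Col2a1, Col6a1, Col8a2, Col9a2 and Col13a1 have 1 probe set. For them the dimmest probe set and the mean of probe sets returned the reported value. Col5a2 and Col11a1, with a second probe set, fell within 2-fold in both. Col1a2 fell within 2-fold only when the values of its 3 probe sets were averaged (0.47), and with the dimmest it was under the floor. Of 194 values of single genes under the alternatives, 168 moved by less than the SD of 0.58, 26 by more, and 0 changed the sign of a gene past 2-fold. The floors, the pseudocount, the demand for both ages and the scaling to equal medians could not change such a sign. Only other probe sets or quantile normalization could, so the 0 says little about the other alternatives. Readings near the floor limit all of these results.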
